A study of Mus musculus with 8 samples.

Results

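DNA synthesis in mitochondria draws on deoxynucleoside triphosphates (dNTPs) made by 2 routes, and 9 genes of these routes were followed here in mouse hearts lacking mtSSB, the mitochondrial single-stranded DNA binding protein encoded by Ssbp1. They were picked by gene name, for salvage of deoxynucleosides, ribonucleotide reduction and dNTP balance, from the 55383 gene rows of the deposited table, and all 9 were found. Total RNA came from whole hearts of C57BL/6N mice at about 5 weeks of age. The knockouts (L/L, cre), labelled Ssbp1-/-, carried a loxP-flanked Ssbp1 on both chromosomes and a Cre recombinase driven by the muscle creatine kinase promoter (Ckmm-cre), and the controls (L/L), labelled Ssbp1+/+, carried no Cre according to the study. Ckmm-cre acts in cardiomyocytes and skeletal muscle from midgestation, so the fibroblasts, endothelial cells and blood cells of a knockout heart keep their Ssbp1. The labels mention the cross with Cre mice for every sample and do not say which mouse carried Cre. For 2 control and 2 knockout hearts all labels give 1 genotype, and these 4 hearts were compared. For 2 further mice, 585H and 586H, title and genotype field contradict each other, and they enter no comparison apart from named alternatives.

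Cells that do not divide have little of the S phase machinery that makes dNTPs in the cytosol, and their mitochondria depend largely on salvage inside the organelle and on a form of ribonucleotide reductase that is present outside S phase. In salvage, thymidine kinase 2 and deoxyguanosine kinase add the first phosphate to deoxynucleosides within the mitochondrial matrix, as the cytosolic thymidine kinase Tk1 does during S phase. Ribonucleotide reductase pairs the large subunit Rrm1 with a small subunit, which is Rrm2 in dividing cells and the p53-inducible Rrm2b in resting ones. Inherited loss of TK2, DGUOK, RRM2B, TYMP or MPV17 causes mtDNA depletion or deletion disease in humans, which is why the set belongs beside a knockout of an mtDNA replication factor.

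None of the 9 genes was shown to change in the knockout hearts. With limma, 0 of the 8 genes above the filter on low counts passed an adjusted p of 0.05 in either direction, and 0 had an unadjusted p under 0.05. edgeR and DESeq2 on the recovered reads also called 0 of 8, with 0 at an unadjusted p under 0.05 in either tool, though DESeq2 gave Tk1 no adjusted p. Over all 14522 genes tested, limma called 0.0757% higher and 0.0413% lower and gave 6.11% an unadjusted p under 0.05, while edgeR called 0.131% and DESeq2, which gave 12551 genes an adjusted p, 0.427%. With calls this rare, 0 of 8 is what the background holds, and the intervals given for each gene state how large a change these hearts could still hide. The median log2 fold change of the 8 genes was -0.04 beside 0.0024 over all genes tested, with 2 estimates above and 6 below 0.

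The reads assigned to genes summed to 19716305 to 25682093 per heart, of which 6568812 to 11259234 fell on nuclear genes. Mitochondrial RNA took 62.7 and 66.7% of the reads of the control hearts, beside 58.0 and 56.2% of those of the knockout hearts. Nuclear depth was lowest in control replicate 2, which also had the fewest reads in all, and highest in the knockouts. Ssbp1 itself differed by -0.23 on the log2 scale (SE 0.16, limma adjusted p = 0.890) between knockouts and controls. It was at 177 and 216 normalized counts in the controls and at 170 and 163 in the knockouts. These counts do not by themselves establish the genotypes. The deposited counts do not separate the targeted exon from the rest of the gene, and non-targeted cells add their own Ssbp1 RNA. Defining cardiomyocyte markers were abundant in all 4 hearts, with a sum over 7 genes of 572641 to 606257 normalized counts in control hearts, against 580077 to 602506 in knockout hearts.

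The 9 genes spanned a wide range of levels. Per kb of the principal transcript, the means of the controls ran from 251 normalized counts for Mpv17, a channel-like protein of the inner mitochondrial membrane, through 163 for Dguok, 83.0 for Samhd1, 63.4 for Rrm2b, 50.2 for Rrm1, 27.1 for Tk2, 17.1 for Tk1 and 15.5 for Rrm2 to 1.29 for Tymp. The mitochondrial kinase Dguok thus stood above its partner Tk2, and the resting-cell subunit Rrm2b above the S phase subunit Rrm2. Neighbours in this order were not all separated by their spread. Rrm2b ranged from 52.1 to 74.7 per kb in the controls, and Rrm1 from 49.9 to 50.6, just below it. Tk1 at 13.1 to 21.0 and Rrm2 at 14.1 to 16.9 overlapped. When the union of all annotated exons was taken as the length, Rrm1 fell level with Tk2, both at 18.2 normalized counts per kb, and Rrm2 at 12.3 stood above Tk1 at 4.73, so those places in the order depend on which length is used.

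**Figure D1:**
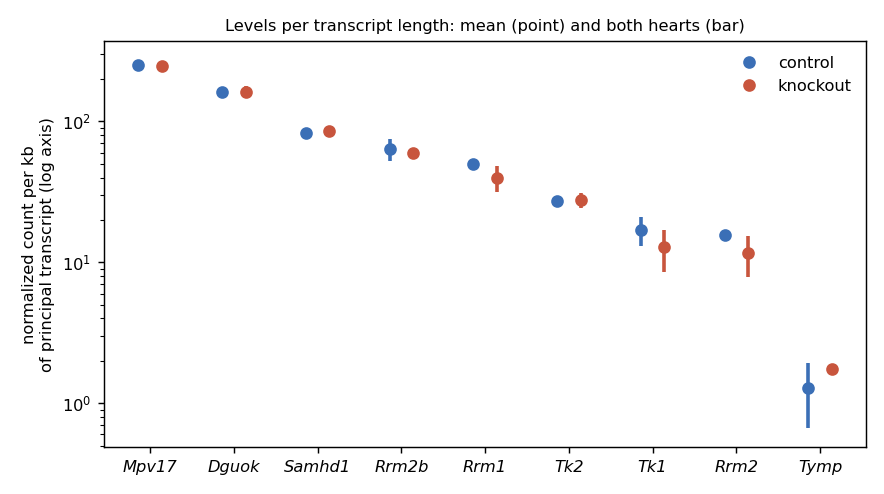
Normalized count per kb of the principal transcript (log axis) for the 9 genes, with the mean of each group as a point and the range of its 2 hearts as a bar, controls in blue and knockouts in red. Mpv17 stood highest at 251 per kb in the controls and Tymp lowest at 1.29, and the bars of the groups overlapped for every gene except Rrm1.

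The 2 kinases of the mitochondrial matrix had nearly the same level in both groups. Tk2 (chr8:104226685-104248558, minus strand), which phosphorylates thymidine and deoxycytidine, was at 61.6 and 68.7 normalized counts in control replicates 1 and 2 and at 74.1 and 58.9 in knockout replicates 1 and 2. The knockouts held both the highest and the lowest value. The log2 fold change was 0.02 (SE 0.23, limma adjusted p = 0.994), with a 95% interval of -0.55 to 0.59. Dguok (chr6:83480217-83506969, minus strand), which phosphorylates deoxyguanosine and deoxyadenosine, was at 177 and 183 in the controls and at 199 and 162 in the knockouts. Here too the knockouts lay on both sides of the controls. Its log2 fold change was -0.0047 (SE 0.165, adjusted p = 0.998), and the interval ran from -0.41 to 0.40.

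Tk1 (chr11:117815526-117826092, minus strand), the cytosolic kinase of S phase cells, was measured by few reads. Control hearts gave normalized counts of 30.3 and 18.9 and knockout hearts 12.4 and 24.5, from 31, 14, 15 and 32 reads in that order. The groups overlapped, with knockout replicate 1 lowest and control replicate 1 highest. The log2 fold change was -0.43 (SE 0.49, adjusted p = 0.934), with a wide interval of -1.64 to 0.77, and 0.03 without knockout replicate 1. On counting error alone, the ratio of the summed reads, scaled by library, was 0.731 (95% interval 0.476 to 1.13). Exons of Tk1 share 83 bases with Afmid on the opposite strand, which stranded counting is meant to keep apart. Afmid was at 74.3 and 66.0 in the controls and at 34.6 and 58.1 in the knockouts. It too was lowest in knockout replicate 1, and whether reads crossed between the strands was not tested.

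Set against Tk2 within each heart, a comparison that no scaling between libraries touches, Tk1 gave a log2 ratio of -1.02 and -1.87 for the controls, against -2.59 and -1.27 for the knockouts. The mitochondrial gene had the larger count in each of the 4 hearts. The means were -1.44 ± 0.60 (SD, n = 2) in the controls and -1.93 ± 0.93 (SD, n = 2) in the knockouts, and the difference of -0.48 had p = 0.667 in a two-sided exact permutation test, whose smallest possible p with 2 against 2 hearts is 0.333. Without knockout replicate 1 the difference was 0.18, and without control replicate 1 it was -0.06, while it reached -0.90 without control replicate 2 and -1.14 without knockout replicate 2.

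**Figure D2:**
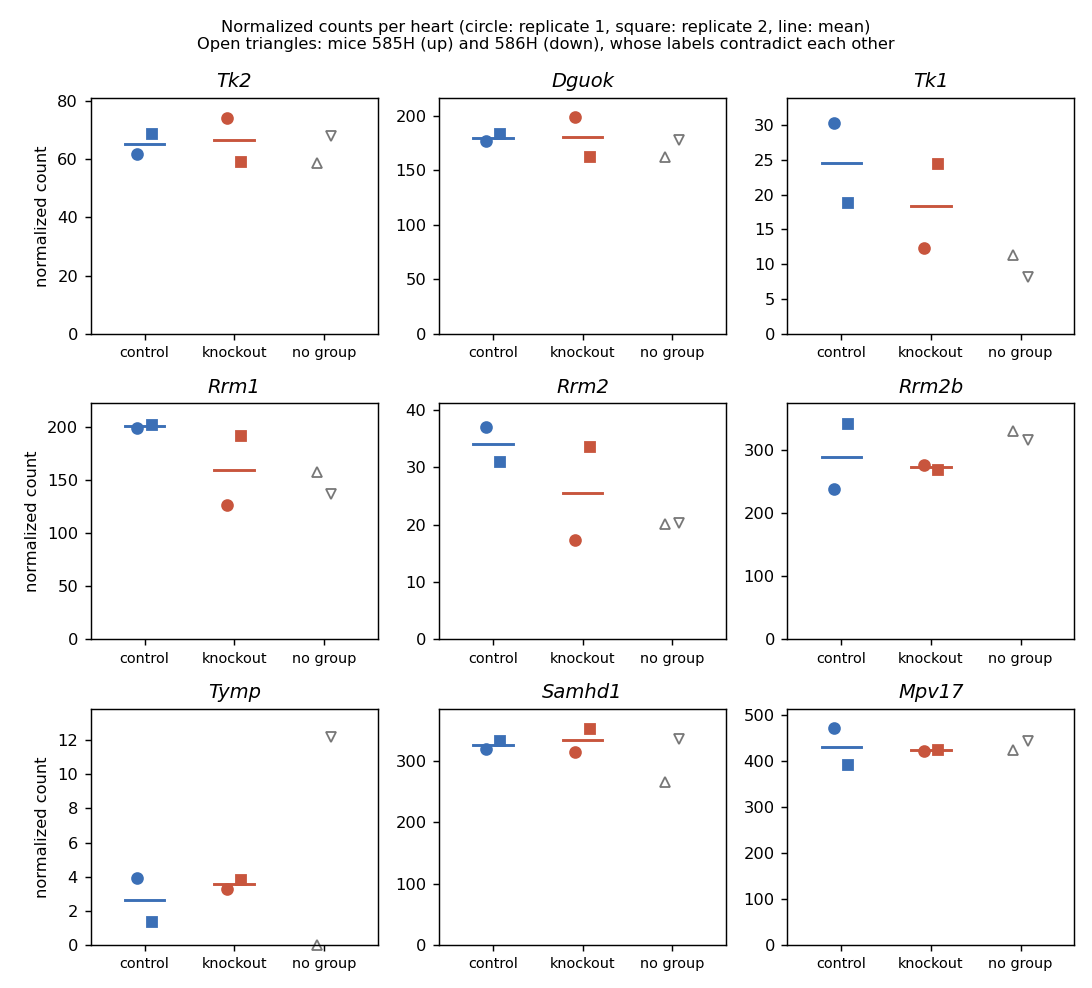
Normalized count of each gene in every heart, on axes that start at 0, with controls in blue, knockouts in red, circles for replicate 1, squares for replicate 2 and a line at the group mean. Open grey triangles are mice 585H and 586H, which belong to no group. The groups overlapped for each gene except Rrm1, whose knockouts at 127 and 192 lay below the controls at 199 and 202.

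In the ribonucleotide reductase, the estimate for each subunit was below 0 and none passed the test. Rrm1 (chr7:102441695-102469771, plus strand), the large subunit that holds the catalytic site, was at 199 and 202 normalized counts in the controls and at 127 and 192 in the knockouts. It was the only one of the 8 tested genes without overlap between the groups, a state that 35.6% of all genes tested shared. Knockout replicate 2 nevertheless sat close under the controls, and most of the gap came from knockout replicate 1. The log2 fold change was -0.36 (SE 0.22, adjusted p = 0.862), with an interval of -0.90 to 0.18. Without knockout replicate 1 it was -0.06, and without knockout replicate 2 it was -0.66 (unadjusted p = 0.024, limma adjusted p = 0.9999). Summed reads gave a ratio of 0.801 (0.693 to 0.927), but that interval covers counting error only and not the difference between mice.

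Rrm2 (chr12:24708241-24714146, plus strand), the S phase small subunit, was at 37.1 and 31.0 in the controls and at 17.3 and 33.7 in the knockouts. Knockout replicate 1 was again lowest, while knockout replicate 2 fell between the controls. The log2 fold change was -0.47 (SE 0.42, adjusted p = 0.908) with an interval of -1.48 to 0.54, and -0.01 without knockout replicate 1.

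Rrm2b (chr15:37923952-37961318, minus strand), the small subunit of resting cells, was at 237 and 341 in the controls and at 277 and 269 in the knockouts. Both knockouts lay inside the range of the controls. The log2 fold change was -0.06 (SE 0.19, adjusted p = 0.975), with an interval of -0.53 to 0.41, and 0.20 without control replicate 2. Rrm2b carries p53 response elements, and a list of 13 tested p53 target genes was given beside it. In that list 0 genes passed the test, and 4 had an unadjusted p under 0.05, beside 6.11% of all genes tested. Of these, Sesn2, Cdkn1a and Aen had estimates above 0, with log2 fold changes of 1.41, 0.58 and 0.47, and Ccng1 had one below 0, at -0.25.

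Rrm2 made up a minor share of the small-subunit reads in all hearts. Its principal transcript has 2193 bases and that of Rrm2b 4561, so shares of reads understate Rrm2 relative to counts per kb. Of the reads on Rrm2 and Rrm2b together, Rrm2 took 13.5% (exact binomial 95% interval 9.75 to 18.1) and 8.33% (5.36 to 12.2) in control replicates 1 and 2, and 5.88% (3.68 to 8.85) and 11.1% (8.21 to 14.7) in knockout replicates 1 and 2. The highest share was in a control and the lowest in a knockout, and the 2 values between them crossed over. The means were 10.9 ± 3.67% and 8.51 ± 3.72% (SD, n = 2 each), which differed by -2.42 percentage points (two-sided exact permutation p = 0.667, smallest possible 0.333). The sign rested on single hearts: the difference was 0.178 without control replicate 1 and 0.211 without knockout replicate 1, but -5.01 without control replicate 2 and -5.05 without knockout replicate 2. With counts per kb and all 4 hearts the difference was -4.13 percentage points (two-sided exact permutation p = 0.667).

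**Figure D3:**
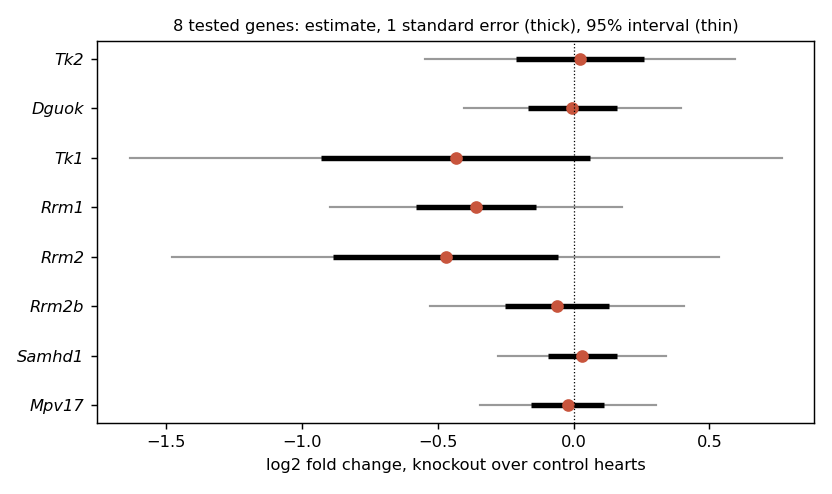
Log2 fold change of knockout over control hearts from limma for the 8 tested genes, with 1 standard error as a thick bar and the 95% interval as a thin line. Every interval crosses 0. The widest belong to Tk1 (-1.64 to 0.77) and Rrm2 (-1.48 to 0.54), and the narrowest to Samhd1 (-0.28 to 0.34) and Mpv17 (-0.35 to 0.30).

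Of the genes that break down or balance the pools, Samhd1 (chr2:157097533-157135265, minus strand), a hydrolase of dNTPs that restrains their level outside S phase, was at 319 and 333 normalized counts in the controls and at 315 and 352 in the knockouts. The knockouts bracketed the controls. Its log2 fold change was 0.03 (SE 0.13, adjusted p = 0.982) with an interval of -0.28 to 0.34. Samhd1 is also an interferon-inducible gene. Among 12 interferon-stimulated genes, 0 passed the test. In 7 the knockouts lay above the controls without overlap, where 35.6% of all genes tested had no overlap in either direction. The list summed to 1778 and 1742 normalized counts in control hearts and to 2272 and 2233 in knockout hearts. In mice 585H and 586H, which belong to no group, it summed to 1433 and 1226, below both controls.

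Tymp (chr15:89371931-89377039, minus strand), the phosphorylase that degrades thymidine, was below the filter of 10 normalized counts in 2 hearts. It was at 3.91 and 1.35 normalized counts in the controls and at 3.30 and 3.83 in the knockouts, from 4, 1, 4 and 5 reads. The counting interval of the ratio of summed reads, scaled by library, was 0.379 to 4.79, so no difference could be detected at this depth. Fitted without the filter, its log2 fold change was 0.42 (SE 0.67, limma adjusted p = 0.898), with an interval of -1.19 to 2.03. Of the exon bases of Tymp, 856 also belong to Sco2 on the same strand, where reads cannot be told apart by strand, and Sco2 was at 72.5 to 98.7 in the 4 hearts. The few reads given to Tymp are therefore uncertain.

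Mpv17 (chr5:31140654-31154251, minus strand) was at 472 and 392 in the controls and at 423 and 425 in the knockouts. Both knockouts fell between the controls. The log2 fold change was -0.02 (SE 0.13, adjusted p = 0.986), and the interval of -0.35 to 0.30 was among the narrowest of the set. A same-strand gene, Gm29609, shares 463 exon bases with Mpv17 and was counted at 11.5 to 16.2.

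Tk1, Rrm1 and Rrm2, whose RNA rises in S phase, shared their lowest value among the 4 hearts in knockout replicate 1. In that heart a list of 20 S phase and proliferation markers, all of which had some reads, was low as well. The markers summed to 2018 and 1544 normalized counts in control replicates 1 and 2 and to 1038 and 1834 in knockout replicates 1 and 2. Of these markers, 18 of 20 were lower in knockout replicate 1 than in knockout replicate 2, where 49.7% of all genes tested were. In control replicate 2, which had the lower Tk1 and Rrm2 of the controls, 15 of 20 were below control replicate 1, beside 50.2% of all genes. Rrm1 did not share this order, at 199 in control replicate 1 and 202 in control replicate 2. The proliferation marker Mki67 was at 639 and 457 in the controls and at 245 and 636 in the knockouts. Between the groups, 0 of 18 tested markers were called. Estimates were below 0 for 15 and above 0 for 3, up to 0.47. The median log2 fold change was -0.34, beside 0.0024 over all genes tested. Cdt1, a replication licensing factor, and Mcm4, a subunit of the replicative helicase, had unadjusted p under 0.05 in limma at -1.06 and -0.54. That threshold was passed by 6.11% of all genes tested. How much of the difference in Tk1, Rrm1 and Rrm2 goes with the number of dividing cells was not tested. In RNA of a whole heart, fewer cells of a type and less RNA per cell cannot be told apart.

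**Figure D4:**
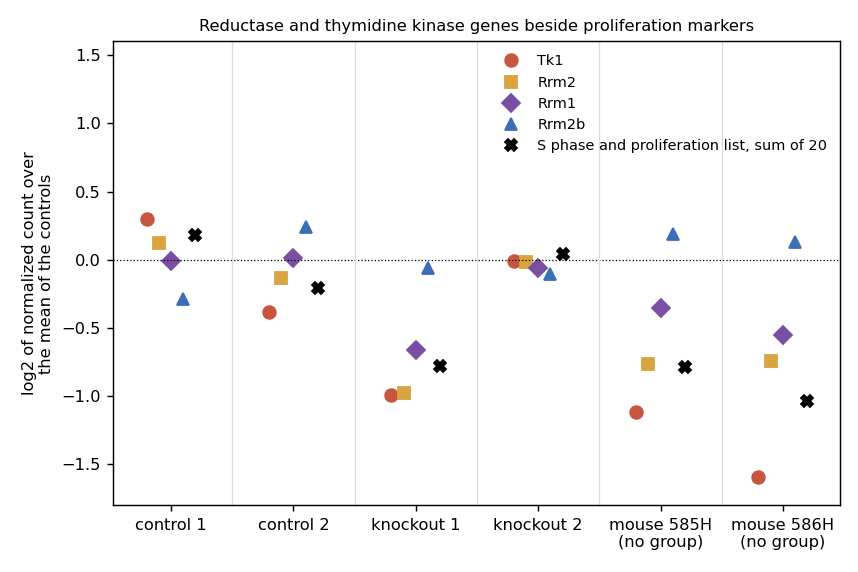
Log2 of the normalized count in each heart over the mean of the controls, for Tk1, Rrm2, Rrm1, Rrm2b and the sum of 20 S phase and proliferation markers. In knockout replicate 1 Tk1, Rrm1, Rrm2 and the marker sum (1038 against 2018 and 1544 in the controls) are low together, Rrm2b is near the controls, and knockout replicate 2 is near 0 for all 5. Mice 585H and 586H belong to no group.

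Sequences at the start sites of Tk1, Rrm1 and Rrm2 are shown because their values were low in the same heart. Of the 9 genes, 8 had a promoter in the RefSeq table for GRCm38.p6, while Rrm2b had none and was not searched. For these 8, the 250 bases before each start site were searched on both strands. The search was for a short core of the E2F motif (TCCCGC or TGGCGC) and for the CCAAT box. E2F factors are the classical activators of S phase genes. The core occurred once each in Tk1, Rrm1 and Rrm2 and in none of the 5 other windows, while 23.42% of 32851 RefSeq windows of the same length held it. These cores were chosen after the sequences had been seen. The longer E2F words TTTCCCGC, TTTGGCGC, TTTGCCGC and TTTCGCGC were in 0 of the 8 windows and in 1.86% of all windows. A CCAAT box was found in Rrm1, Rrm2 and Tymp and in 33.85% of all windows. A match is a string of letters and not a bound site. The stretches are printed on the strand of the gene, 5′ to 3′, with E2F cores and CCAAT boxes in capitals. For Tk1, 30 bases around the core are given (chr11:117826069-117826098, minus strand), since GENCODE starts the gene 78 bases farther upstream than RefSeq. By GENCODE the core of Tk1 therefore lies inside the first exon and not before the start site, and 24 of the 30 bases printed are exonic. The searched windows of Rrm2, Tymp and Samhd1 also reached past the start that GENCODE gives. Rrm1 is given at chr7:102441445-102441694 and Rrm2 at chr12:24708004-24708240, both on the plus strand.
Tk1: aatgaagaaatcTGGCGCtcaacgcttgga
Rrm1: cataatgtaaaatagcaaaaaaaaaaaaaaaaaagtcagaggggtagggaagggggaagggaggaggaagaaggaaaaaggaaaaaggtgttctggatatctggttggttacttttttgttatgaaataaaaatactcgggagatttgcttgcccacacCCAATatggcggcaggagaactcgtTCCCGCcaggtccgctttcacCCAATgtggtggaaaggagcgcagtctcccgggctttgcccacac
Rrm2: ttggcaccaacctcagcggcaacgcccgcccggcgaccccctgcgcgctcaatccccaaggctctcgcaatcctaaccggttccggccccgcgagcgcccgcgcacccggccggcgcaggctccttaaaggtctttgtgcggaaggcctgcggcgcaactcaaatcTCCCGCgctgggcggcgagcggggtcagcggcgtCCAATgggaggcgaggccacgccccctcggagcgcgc

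Counted from the RefSeq start site, the core began at position -72 in Tk1, -66 in Rrm1 and -84 in Rrm2. CCAAT boxes began at -91 and -45 in Rrm1 and at -50 in Rrm2.

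Rrm1 had the smallest p of the set. The genes that followed it most closely over all 6 mice were Cilp, Rab8b and Arpc5. On log2(normalized count + 1), these genes had a Pearson r of 0.983, 0.98 and 0.979. They were the top 3 of 10573 genes with a mean of at least 50, over 6 libraries that differ in depth, and the correlations are a description without a test. Cilp, a matrix protein of fibroblasts, was at 183 and 191 in the controls and at 64.3 and 187 in the knockouts, so it shared the low value in knockout replicate 1. Rab8b was at 227 and 242 in the controls and at 174 and 220 in the knockouts, and Arpc5 at 318 and 309 against 259 and 315. The 6 fibroblast markers had a median log2 fold change of -0.23 with 0 called. Of their estimates, 5 were below 0 and 1 above, Tcf21 at 0.26, whose groups did not overlap. The sum of these markers was 8729 and 8241 in control hearts, against 6926 and 7435 in knockout hearts. The part of fibroblasts in the level of Rrm1 was not tested.

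Around the 9 genes, 70 other genes of nucleotide metabolism were examined in 8 lists, and 68 of them passed the filter. By limma 0 were called, 5 had an unadjusted p under 0.05 with a higher level in the knockouts and 1 with a lower level, and the median log2 fold change was -0.0068. edgeR and DESeq2 also called 0, with 5 and 4 at an unadjusted p under 0.05, and DESeq2 gave 65 of the 68 an adjusted p. The groups did not overlap in 23 of 68 genes, 11 above and 12 below the controls, beside 35.6% of all genes.

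The 5 higher genes came from 4 lists. Ctps, the CTP synthase that converts UTP to CTP, was at 345 and 325 normalized counts in the controls and at 473 and 496 in the knockouts, a log2 fold change of 0.53 (SE 0.12, adjusted p = 0.530). Uck2, a uridine-cytidine kinase, was at 602 and 488 in the controls and at 774 and 977 in the knockouts, a change of 0.68 (SE 0.16, adjusted p = 0.577). Slc25a33, a pyrimidine nucleotide carrier of the inner mitochondrial membrane, was at 57.7 and 83.5 in the controls and at 133 and 118 in the knockouts, a change of 0.84 (SE 0.24, adjusted p = 0.680). In each of the 3 both knockouts lay above both controls, and none passed the adjustment over all genes. The other carrier of this kind, Slc25a36, was at 907 and 814 against 970 and 856, with overlapping groups. The list of 5 pyrimidine synthesis genes that holds Ctps had a median log2 fold change of -0.07 and 3 estimates below 0. Among them Cad, which starts the route, was at 215 and 218 in the controls and at 189 and 157 in the knockouts, an estimate of -0.33 (adjusted p = 0.815), and Ctps2 was at -0.27.

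The other 2 were Nme2, a nucleoside diphosphate kinase, at 0.32 (adjusted p = 0.704), and Prps1, which makes the ribose donor of nucleotide synthesis, at 0.50 (adjusted p = 0.773). Nme2 shares near-identical sequence with Nme1, whose estimate was 0.56 (adjusted p = 0.809), and reads could be split between them with error. Prps1 was at 113 and 125 in the controls and at 183 and 156 in the knockouts. The 13 genes of purine synthesis had a median log2 fold change of 0.08, and 9 of 13 estimates were above 0.

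The gene with a lower level at an unadjusted p under 0.05 was Abat, at 137 in each control and at 87.3 and 111 in the knockouts, a log2 fold change of -0.47 (SE 0.19, adjusted p = 0.806). Abat, the GABA transaminase, is also needed for mitochondrial dNTP conversion, and its loss in humans lowers mtDNA. Loss of the succinyl-CoA ligase subunits SUCLA2 or SUCLG1 has the same effect. The estimates for this enzyme stayed close to 0, with -0.07 for Sucla2, 0.02 for Suclg1 and -0.01 for Suclg2.

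For thymidylate, the nucleotide that Tk1 and Tk2 also feed, 0 of 6 genes of the synthesis route were called, with 3 estimates above and 3 below 0. Dut, which clears dUTP and supplies dUMP, was at 119 and 132 in the controls and at 87.3 and 97.9 in the knockouts, a log2 fold change of -0.44 (SE 0.18, adjusted p = 0.806). Tyms, thymidylate synthase, was at 40.1 and 39.1 against 32.1 and 38.3, an estimate of -0.17 (SE 0.28, adjusted p = 0.956). In Dut and Tyms the knockouts lay below the controls without overlap, a state that 35.6% of all genes tested shared in either direction. Shmt1 and Dctd had estimates on the other side, 0.37 (adjusted p = 0.915) and 0.32 (adjusted p = 0.956), with overlapping groups.

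In the 17 nucleoside and nucleotide kinases the median was -0.03 with 12 estimates below 0, in the 12 tested nucleotidases, phosphorylases and deaminases -0.12, and in the 5 tested enzymes that clean the pools 0.05. Nt5m, the mitochondrial nucleotidase that opposes Tk2, was at 125 and 117 in the controls and at 141 in each knockout, an estimate of 0.22 (SE 0.16, adjusted p = 0.891). Its knockouts lay above its controls by more than either pair differed within itself, and the adjusted p did not pass. Groups without overlap, in either direction, were found in 35.6% of all genes tested.

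**Figure D5:**
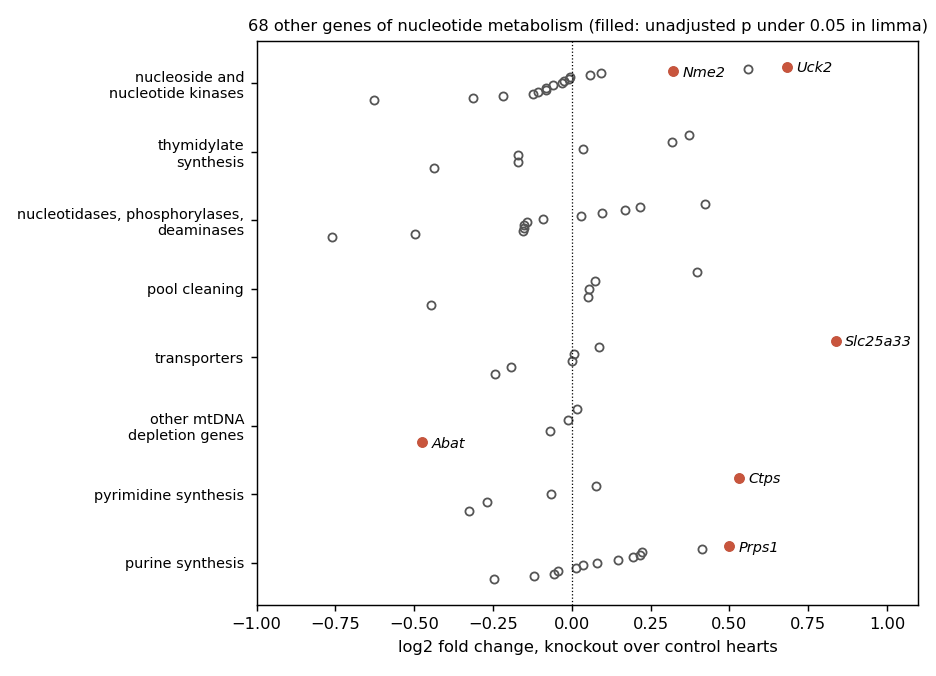
Log2 fold change of knockout over control hearts for 68 other genes of nucleotide metabolism, 1 circle per gene, in 8 lists. Filled circles have an unadjusted p under 0.05 in limma. They are Ctps, Uck2, Slc25a33, Nme2 and Prps1 above 0 and Abat below, and 0 of 68 genes passed the adjustment over all genes.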

How the data were processed

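RNA of whole hearts was sequenced in stranded TruSeq libraries. The authors aligned reads with STAR 2.7.3a to GRCm38.p6, quantified them with Salmon 1.1.0, summarised genes with tximport and deposited a signal per gene: counts normalized with DESeq2 1.26.0. Of these values, 100% were whole multiples of 1 read per library within a tolerance of 0.001, so reads could be recovered. On them edgeR 4.0.16 called 19 and DESeq2 1.42.0 called 62 of 14522 genes. The authors' table of their own comparison (fold changes and p-values) was not used.

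Genes with at least 10 normalized counts in at least 2 of 4 libraries entered limma 3.58.1 (R 4.3.3) as log2(normalized count + 1). The test was two-sided, the variance followed a trend with the mean, and p-values were adjusted over all genes tested (Benjamini-Hochberg). Fold changes are on that scale and understate changes of low genes. Hearts are separate mice. The fits were tested on simulated counts with known changes. Binomial and ratio intervals (95%) cover counting error only, and not the error of assigning reads to genes. Alternatives covered pseudocount, filter, scaling, test, a replicate block, each library left out and the 6 mice by either label.

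The members and lists were chosen with earlier results of these data known. Named genes were the 9 members, Ssbp1, up to 4 genes of each list with the smallest p, and the 3 genes most correlated with the member of smallest p. Mki67 was named after its values were seen, and Sco2, Gm29609 and Afmid for exons shared with members. Gene positions and lengths were taken from GENCODE vM21 on GRCm38. Figures were drawn with matplotlib 3.10.9 in Python 3.11.15.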

Additional observations from a re-analysis of the deposited data

Results flagged for a closer look

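Each of the 9 genes was screened in mice 585H and 586H for a value above both controls with a counting interval wholly above an equal level. Tymp in mouse 586H, whose labels give no single group, met this rule. It was at 12.2 normalized counts there, from 9 reads, against 5 reads in both controls together, a ratio of 4.31 with a counting interval of 1.30 to 16.4. That interval was part of the rule and is no support of its own. Low values were not screened, and the intervals of Tk1 and Rrm1 in both mice lay wholly below an equal level. In mouse 585H Tymp was listed at 0, where a count of 0 allows up to 3 reads. Neither mouse was in a comparison, and exons shared with Sco2 make the reads of Tymp uncertain.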

How the results depend on the processing

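The count of called members was 0 and the count of called pathway genes was 0 under each of 16 alternatives. Of 126 refits of the members, 111 kept the direction, 15 reversed it and 0 were called, with adjusted p between 0.546 and 1.0 where one was given (DESeq2 gave none for Tk1). Reversals outside the left-out libraries were of estimates near 0. Dguok became 0.0094 with equal nuclear totals, 0.0011 with TMM, 0.0084 with edgeR and 0.039 with 6 mice grouped by title, where Mpv17 became 0.0055. With 6 mice grouped by genotype field, Tk2 became -0.054 and Samhd1 -0.093. With each library left out in turn, the log2 fold change ran from -0.14 to 0.19 for Tk2, -0.15 to 0.14 for Dguok, -0.90 to 0.031 for Tk1, -0.66 to -0.06 for Rrm1, -0.93 to -0.01 for Rrm2, -0.32 to 0.20 for Rrm2b, -0.049 to 0.11 for Samhd1 and -0.16 to 0.11 for Mpv17. The difference in the Rrm2 share ran from -5.05 to 0.211 percentage points, and that in log2 Tk1 to Tk2 from -1.14 to 0.18. For Tk1, Rrm1 and Rrm2 the end nearest 0 is the value without knockout replicate 1 and the far end the value without knockout replicate 2. Signs also turned without control replicate 1 (Tk2 -0.06, Mpv17 0.11, Rrm2 share 0.178), control replicate 2 (Dguok 0.02, Rrm2b 0.20), knockout replicate 1 (Tk2 -0.14) and knockout replicate 2 (Dguok 0.14, Samhd1 -0.049). These fits assume that the lone heart varies like the others. With the replicate number as a block, 0 members and 0 pathway genes were called, and the calls over all genes were 23 higher and 7 lower against 11 and 6. Same-numbered hearts deviated together with r = 0.31 over 2 pairs, and the number was not taken as a pairing. Over all genes, the calls were 6 higher and 0 lower without a mean-variance trend, 43 and 19 by DESeq2, 0 and 0 with the 6 mice by title, where 379 genes had an unadjusted p under 0.05, and 38 and 13 by genotype field. Low read numbers limit Tk1, Rrm2 and Tymp most, and 2 hearts per group limit all 9 genes.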

Other observations

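Mice 585H and 586H gave values for the 9 genes that enter no comparison. Tk1 was at 11.4 and 8.13 normalized counts in 585H and 586H, from 13 and 6 reads, below the 4 compared hearts. Rrm1 was at 157 and 137, and Rrm2 at 20.1 and 20.3, so that Rrm2 took 5.75 and 6.05% of the reads on both small subunits. Their S phase and proliferation markers summed to 1035 and 868, the first close to knockout replicate 1 at 1038. Rrm2b was at 330 and 316, Tk2 at 58.6 and 67.8, Dguok at 163 and 178, Samhd1 at 265 and 336 and Mpv17 at 425 and 443.

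Erythroid markers, which mark blood left in a heart, summed to 14258 and 10802 normalized counts in the controls and to 11297 and 30947 in the knockouts, with 0 of 4 called. Of 7 macrophage markers 0 were called, and the median was -0.23, with 2 estimates above and 5 below 0. Lyz2 and Cd68 had unadjusted p under 0.05 in limma at -0.41 and -0.86, a threshold that 6.11% of all genes tested passed. Endothelial and mural cell lists had medians of 0.03 and 0.02, the cardiomyocyte list -0.02, and of 5 lymphocyte markers 2 could be tested, with 0 called.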
